A study of Mus musculus with 9 samples.

Results

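The genes described here report endoplasmic reticulum (ER) stress and the ATF4 response: Atf4, Ddit3, Atf3, Trib3, Chac1, Asns, Fgf21, Hspa5, Herpud1 and Xbp1. Rows were taken by gene symbol alone, though the list of symbols was drawn up with earlier results of these data known. The liver mRNA table holds 21873 genes, and 11 of its rows carry one of these 10 symbols, because Ddit3 is listed under a pair of identifiers. The main row of each gene, 10 rows in all, passed the filter on low values, a mean of at least 0.1 FPKM (sequenced fragments relative to gene length and library size) over the libraries. The second Ddit3 row (ENSMUSG00000116429) covers 105 exon bases that the main row also covers, was listed at or below 0.000735 FPKM in every library, and was not tested.

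Bulk mRNA was sequenced from the whole liver of 9 male C57BL/6 mice that were 8 weeks old at the start, 3 per group with 1 library per mouse. Control mice received normal saline into the peritoneum for 8 weeks. TAA mice received thioacetamide, a hepatotoxin that liver enzymes turn into reactive products, at 200 mg/kg every 3 days for 8 weeks, and both groups were killed 72 h after the last injection. Recovery mice received the same 8 weeks of TAA and then had 8 weeks without injections, so they were 8 weeks older than the others, and age and recovery cannot be told apart in any comparison that includes them. Values are given as scaled FPKM, the deposited FPKM divided by 1 factor per library, the median of the ratios of its genes to their geometric means. The factors were 0.827 to 0.878 in the control, 0.893 to 0.907 in the recovery and 1.29 to 1.38 in the TAA libraries, which corresponds to a shift of -0.64 on the log2 scale in TAA against control, smaller for genes near the pseudocount. Differences are log2 fold changes of scaled FPKM + 0.1, which understate the change of low genes. A gene was called when limma gave a Benjamini-Hochberg adjusted p under 0.05 over the 14094 genes tested and the fold change was at least 2.

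When unfolded protein accumulates in the ER, the sensors IRE1, PERK and ATF6 in its membrane start the unfolded protein response. IRE1 splices Xbp1 mRNA into the form that encodes an active transcription factor, ATF6 is cut into a factor that induces chaperones such as Hspa5, and PERK phosphorylates the translation factor eIF2α, which slows protein synthesis in general but favours translation of Atf4 mRNA. Other eIF2α kinases answer to amino acid shortage, haem shortage or viral RNA and lead to ATF4 as well, so its targets are read as an integrated stress response. In the liver this response meets amino acid metabolism and the hormone FGF21. Because control of ATF4 is largely translational and control of XBP1 is by splicing, the gene-level mRNA values of both say little about the active proteins.

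The promoters of the 10 genes were searched for exact forms of elements through which these factors are known to act, since the family is defined by its response to them. Variants in letters or spacing were not searched for. RefSeq windows of 300 bases (250 before to 50 after the annotated start, GRCm38.p6) were matched for 10 of 10 genes. The ER stress response element, CCAAT and CCACG with 9 free bases between them, which ATF6 binds together with NF-Y, was found in the window of 1 gene, Hspa5, 65 bases before its start. Of 27025 windows over all genes, 0.13% hold this exact form. The windows of Atf4, Chac1 and Herpud1 also hold both CCAAT and CCACG on either strand, in other arrangements that were not counted. In Herpud1 they include ATTGGGCCACG, where CCAAT reads on the other strand. The exact element of Hspa5 is shown in capitals within the stretch chr2:34772000-34772068, plus strand.
Hspa5: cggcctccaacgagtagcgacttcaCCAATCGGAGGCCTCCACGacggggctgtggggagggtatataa

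The core of the C/EBP-ATF composite element, TGATGNAA on either strand, to which ATF4 binds with C/EBP proteins, was found once in each of 6 of the 10 windows, against 4.06% of all windows. The genes were chosen as members of this response, so their share is a description of the family and not evidence drawn from the mRNA values. Each stretch shows up to 25 bases on either side of the core, which is in capitals and reads as its reverse complement in all but Asns. The stretches are chr1:191183411-191183468 of Atf3, chr2:152344014-152344071 of Trib3, chr2:119351024-119351081 of Chac1, chr6:7693200-7693257 of Asns, chr8:94386292-94386349 of Herpud1 and chr7:45615597-45615654 of Fgf21, with Chac1 and Herpud1 on the plus strand and the others on the minus strand.
Atf3: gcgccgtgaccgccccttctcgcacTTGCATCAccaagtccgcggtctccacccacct
Trib3: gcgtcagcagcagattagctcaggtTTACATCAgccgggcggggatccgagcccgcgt
Chac1: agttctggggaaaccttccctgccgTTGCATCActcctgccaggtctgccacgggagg
Asns: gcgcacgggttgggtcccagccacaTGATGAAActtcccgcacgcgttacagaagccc
Herpud1: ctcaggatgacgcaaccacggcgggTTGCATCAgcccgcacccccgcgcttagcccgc
Fgf21: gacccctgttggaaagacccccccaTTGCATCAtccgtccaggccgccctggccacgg

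The core began 110 bases before the RefSeq start of Atf3, 193 before that of Chac1, 23 before that of Asns, 112 before that of Herpud1 and 139 before that of Fgf21, while in Trib3 it began at base 15 of the transcript. Atf3, Chac1, Herpud1 and Fgf21 carried the identical 8 letters TTGCATCA. The unfolded protein response element TGACGTGG, which shares CCACG on its other strand with the ER stress response element, was in none of the 10 windows (0.607% of all windows). The palindromic cAMP response element TGACGTCA, which shares TGACGT with it, was in none either (1.88% of all windows). These counts say only which letters stand in these windows.

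The members did not move as a block under TAA. Against control, 5 of the 10 genes were called: the transcription factor gene Atf3 was higher, and Trib3, Asns, Herpud1 and Fgf21 were lower. Over all tested genes 25.0% were called, 17.0% higher and 8.02% lower, while the member calls were 1 higher and 4 lower. The higher share of all calls depended on scaling, at 67.9% here, 91.2% with the FPKM as deposited and 54.9% after quantile normalization. It also depended on the treatment of low genes, at 53.4% among genes of at least 1 FPKM and 50% with a pseudocount of 1. Under both of these the member calls stayed at 1 higher and 4 lower. The member calls split into 2 higher and 3 lower as deposited, and into 2 higher and 4 lower after quantile normalization. The median log2 fold change was -0.54 for the members and 0.02 for all genes. In 8 of the 10 the scaled TAA and control values did not overlap, which was also so for 63.6% of all genes.

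Between TAA and recovery 2 of the 10 were called, Fgf21 higher and Atf3 lower in recovery. The share called among all genes was 21.4%, with 7.12% higher and 14.3% lower in recovery. Of all calls 33.2% were higher in recovery, 9.89% as deposited and 45.4% after quantile normalization. That share was 48.5% among genes of at least 1 FPKM and 51.3% with a pseudocount of 1. The member median was 0.20 and that of all genes -0.01. The scaled recovery and TAA values of 5 members did not overlap (60.3% of all genes).

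**Figure D1:**
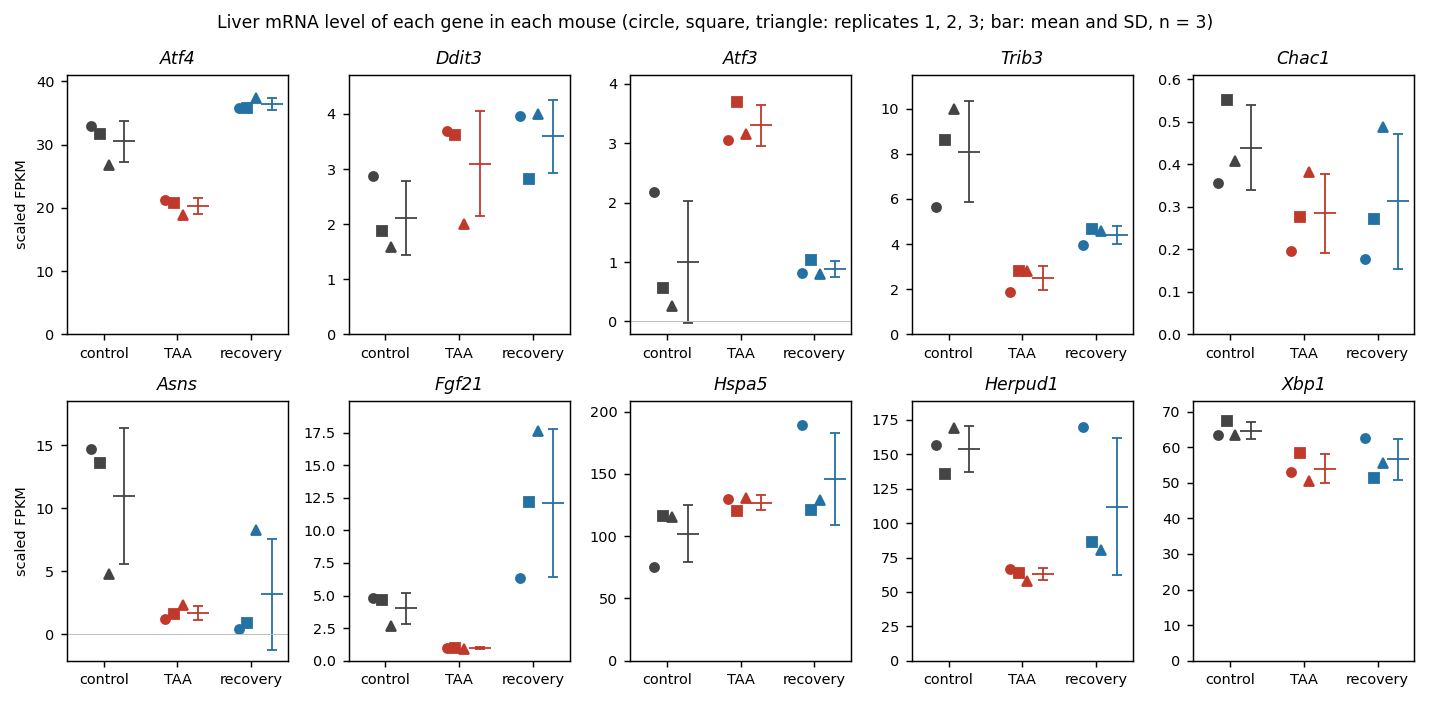
Scaled FPKM of the 10 genes (y axis, linear, 1 scale per gene) in each mouse of the control, TAA and recovery groups (x axis). Symbols are mice and the bars beside them are the mean and SD of 3 mice. Fgf21 was at or below 1.0 in the 3 TAA mice and at least 6.34 in the 3 recovery mice, while Atf3 was at least 3.06 in the TAA mice and at most 2.18 in the others.

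Atf4 (chr15:80255184-80257541, plus strand) encodes the transcription factor at the centre of the response. Its level was 32.9, 31.7 and 26.8 scaled FPKM in control mice, 21.2, 20.8 and 18.9 in TAA mice, and 35.8, 35.8 and 37.4 in recovery mice. The 3 groups did not overlap on this scale, with TAA lowest and recovery highest. As deposited, control (23.5 to 27.2 FPKM) and TAA (26 to 27.5) overlapped. The TAA against control difference was -0.58 ± 0.10 (SE, log2), with an adjusted p of 0.00259 by limma, short of 2-fold, and it turned to 0.06 with the FPKM as deposited. Recovery exceeded TAA by 0.84 ± 0.08 (adjusted p = 0.000152 by limma), again short of 2-fold, and by 0.28 as deposited. Atf4 had the tightest recovery group of all members, with a coefficient of variation of 2.51%.

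Ddit3 (chr10:127290774-127313057 in the table) encodes CHOP, a transcription factor that promotes cell death under prolonged ER stress. Its level was 2.87, 1.88 and 1.58 in control mice, 3.69, 3.62 and 2.0 in TAA mice, and 3.96, 2.82 and 3.99 in recovery mice. TAA 3 lay within the control range, so the groups overlapped. The TAA against control difference was 0.53 ± 0.29 (adjusted p = 0.164 by limma, 95% interval -0.16 to 1.22). With the FPKM as deposited it was 1.14 with an adjusted p of 0.00641, and the gene was then called. The span given in the table runs past the GENCODE end at base 127296288, and 68 of the exon bases of Ddit3 overlap Mars on the other strand. The strand setting of the counting is not given in the sources used here, so reads of Ddit3 and Mars may not be fully separated.

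Atf3 (chr1:191170296-191218039, minus strand) encodes a factor induced by many kinds of stress, ATF4 among them. In control mice it was at 2.18, 0.557 and 0.259 scaled FPKM, in TAA mice at 3.06, 3.69 and 3.16, and in recovery mice at 0.821, 1.03 and 0.797. The TAA mice were alike and stood above all others, whereas the controls spanned 8.40-fold. Atf3 rose by 2.06 ± 0.59 in TAA against control (4.17-fold, adjusted p = 0.0201 by limma). The call was lost without control 2 (adjusted p = 0.0612), without TAA 1, 2 or 3 (adjusted p = 0.05, 0.06 and 0.0603) and without the filter on low values (adjusted p = 0.0508), and it held with a difference of 2.80 without control 1 and of 1.47 without control 3. In recovery Atf3 was 1.80 ± 0.16 lower than in TAA on the log2 scale, which is 3.47-fold (adjusted p = 7.93e-05 by limma), and was called under every alternative tried.

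Trib3 (chr2:152337422-152344032, minus strand) encodes a pseudokinase that ATF4 and CHOP induce and that restrains ATF4 in turn. The control mice were at 5.65, 8.62 and 10, the TAA mice at 1.87, 2.81 and 2.81, and the recovery mice at 3.94, 4.69 and 4.59. The groups did not overlap on this scale, and recovery lay between TAA and control. As deposited, recovery 1 (3.54 FPKM) was below TAA 2 and 3 (3.71 and 3.87). Trib3 fell by 1.64 on the log2 scale in TAA (SE 0.24, 3.12-fold, adjusted p = 0.00103 by limma), and fell under every alternative. Recovery exceeded TAA by 0.81 ± 0.18 (adjusted p = 0.00672 by limma), short of 2-fold, and by 0.27 as deposited (adjusted p = 0.244).

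Chac1 (chr2:119351229-119354381, plus strand) encodes an enzyme that degrades glutathione and is a sensitive ATF4 target in cultured cells. It was the lowest of the members, at 0.357, 0.551 and 0.408 in control, 0.196, 0.277 and 0.383 in TAA and 0.177, 0.272 and 0.488 in recovery mice. All 3 groups overlapped. The estimated fragments behind these values were 9.08 to 33.3 per library, so counting error alone is large. The TAA against control difference was -0.50 ± 0.26 (adjusted p = 0.139 by limma, 95% interval -1.09 to 0.10), was 0.00 as deposited and -1.33 after quantile normalization (adjusted p = 0.00278), and recovery against TAA was 0.06 ± 0.33.

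Asns (chr6:7675169-7693254, minus strand) encodes asparagine synthetase, a classical target of the amino acid response. Control mice were at 14.7, 13.6 and 4.81, TAA mice at 1.19, 1.61 and 2.31, and recovery mice at 0.436, 0.859 and 8.28. Every TAA mouse was below every control, while the recovery mice ran from below all TAA mice to within the control range. Asns fell by 2.52 in TAA (SE 0.43, log2, 5.72-fold, adjusted p = 0.00204 by limma), the largest change among the members, and remained called under every alternative. Recovery against TAA was -0.10 ± 0.90 (adjusted p = 0.935 by limma), with a 95% interval of -2.18 to 1.98. That value rested on recovery 3: without it recovery was lower than TAA by -1.28 (adjusted p = 0.0215), and without recovery 1 the difference was 0.70.

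Fgf21 (chr7:45613886-45615490, minus strand) encodes a hormone released by the liver in fasting, protein shortage and ER stress. Its levels were 4.78, 4.65 and 2.67 in control, 1.0, 0.983 and 0.881 in TAA, and 6.34, 12.2 and 17.6 in recovery mice. No groups overlapped, and the order was TAA, control, recovery. Fgf21 fell by 1.93 in TAA (SE 0.23, log2, 3.80-fold, adjusted p = 0.00035 by limma) and rose by 3.41 ± 0.33 from TAA to recovery (10.6-fold, adjusted p = 0.000125 by limma), the largest difference of any member. Both calls held under every alternative, the second with differences of 2.64 to 3.86. The TAA mice agreed within a coefficient of variation of 6.73%, against 46.8% in recovery.

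**Figure D2:**
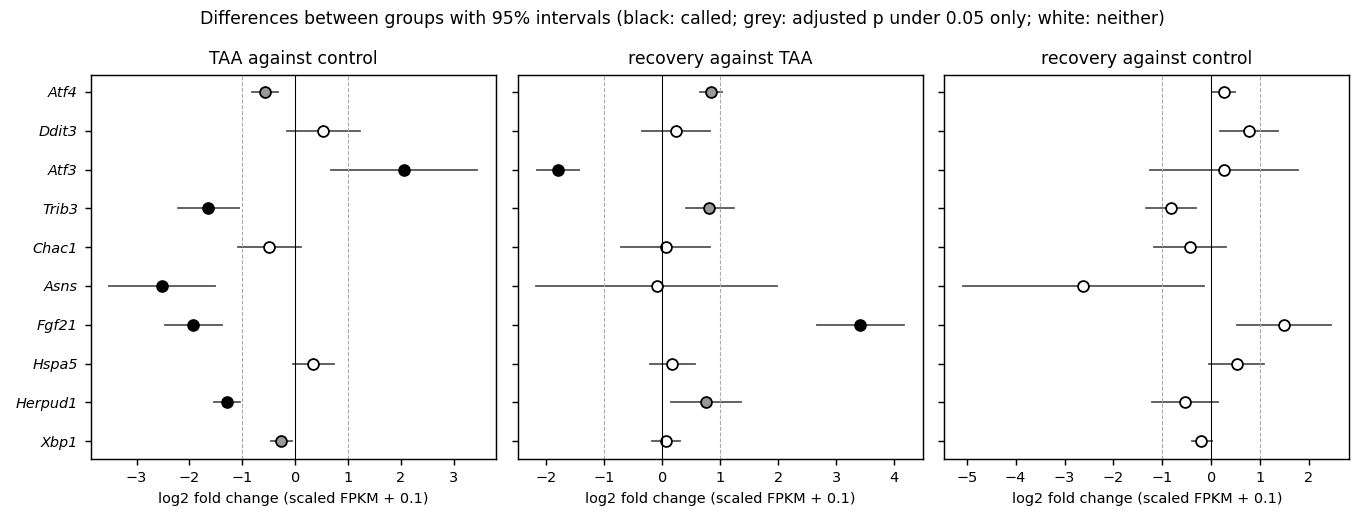
Log2 fold changes (x axis, scaled FPKM + 0.1) of the 10 genes (y axis) in the 3 comparisons, with lines for the 95% interval of limma and dashed lines at a 2-fold change. Black points were called, grey points had an adjusted p under 0.05 without a 2-fold change, white points neither. Called genes are Atf3, Trib3, Asns, Fgf21 and Herpud1 on the left, Atf3 and Fgf21 in the middle and none on the right.

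Hspa5 (chr2:34771970-34777547, plus strand) encodes BiP, the major chaperone of the ER lumen, and holds the ER stress response element printed above. It was among the most abundant members, at 75.4, 116 and 115 in control, 130, 120 and 131 in TAA and 189, 121 and 129 in recovery mice. The TAA mice lay just above the controls without overlap, and recovery 1 stood apart above all others. The TAA against control difference was 0.34 ± 0.17 (adjusted p = 0.123 by limma, 95% interval -0.05 to 0.74). It depended on the scaling, at 0.98 as deposited (adjusted p = 0.00203, not called) and 1.10 after quantile normalization (adjusted p = 0.00141, called). It was 0.13 without control 1. Recovery against TAA was 0.17 ± 0.17, turning to -0.39 as deposited and -0.54 after quantile normalization.

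Herpud1 (chr8:94386438-94395377, plus strand) encodes HERP, an ER membrane protein that takes part in the degradation of misfolded proteins and is induced by several arms of the response. The 3 controls were at 157, 136 and 169, the 3 TAA mice at 66.8, 63.6 and 58.0, and the recovery mice at 170, 86.3 and 80.3. TAA lay below all other mice on this scale, and recovery 1 was the highest of the 9. As deposited, recovery 2 and 3 (77.1 and 72.8 FPKM) were below every TAA mouse (79.9 to 86). Herpud1 fell by 1.29 in TAA (SE 0.11, log2, 2.45-fold, adjusted p = 6.65e-05 by limma). It stayed lower but under 2-fold as deposited (-0.65, adjusted p = 0.000891) and after quantile normalization (-0.59, adjusted p = 0.00276), so the call needs the scaling used here. Recovery exceeded TAA by 0.75 ± 0.26 (adjusted p = 0.0434 by limma), by 0.41 without recovery 1, and by 0.19 as deposited (adjusted p = 0.53).

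Xbp1 (chr11:5520659-5525893, plus strand) varied least across the study, at 63.4, 67.3 and 63.3 in control, 52.9, 58.4 and 50.5 in TAA and 62.7, 51.4 and 55.7 in recovery mice. TAA and control did not overlap, and recovery overlapped TAA. The TAA against control difference was -0.26 ± 0.09 (adjusted p = 0.0342 by limma), but 0.37 as deposited and 0.32 after quantile normalization, so its direction is not settled. Recovery against TAA was 0.07 ± 0.10, turning to -0.49 as deposited and -0.45 after quantile normalization.

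**Figure D3:**
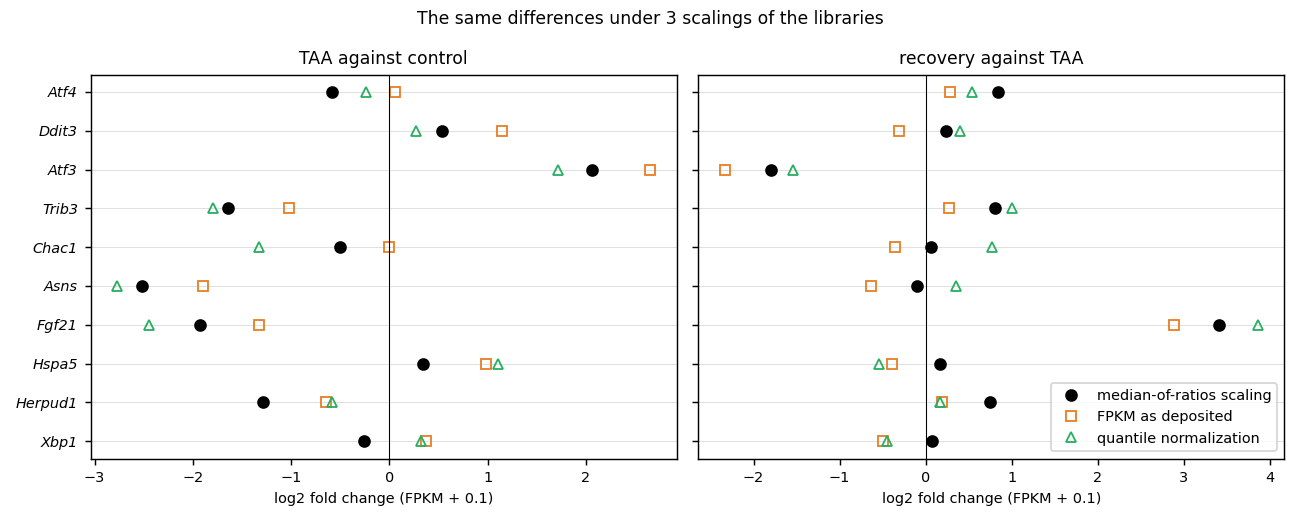
Log2 fold changes (x axis) of the 10 genes (y axis) in TAA against control and recovery against TAA under median-of-ratios scaling, with the FPKM as deposited and after quantile normalization. In TAA against control, Atf4 crosses 0 as deposited and Xbp1 under both other scalings. Trib3, Asns, Fgf21 and Herpud1 stay lower in TAA than in control under all 3. In recovery against TAA, Xbp1 and Hspa5 cross 0 under both other scalings, Ddit3 and Chac1 as deposited, and Asns after quantile normalization.

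None of the 10 genes was called between recovery and control by limma, where 0.993% of all genes were called, 0.582% higher and 0.412% lower. Of all these calls 58.6% were higher, 69.3% as deposited and 53.7% after quantile normalization. No member had an adjusted p under 0.05 by limma, while 381 of all tested genes did. An unadjusted p under 0.05 was found for 5 members: Ddit3, Atf4, Trib3, Asns and Fgf21. The share of all genes under that unadjusted threshold is not given here. Whether 5 of 10 is unusual was therefore not tested, and the same holds for such counts in the lists below. The scaled recovery and control values of 5 members did not overlap, against 30.2% of all genes. Hspa5, Atf4 and Fgf21 were above control and Trib3 and Xbp1 below. Fgf21 was 1.49 ± 0.40 above control (2.80-fold, adjusted p = 0.0996 by limma), and it was called when all 9 libraries shared 1 fit (adjusted p = 0.0361). Trib3 was at -0.83 ± 0.21 (adjusted p = 0.093 by limma) and was called as lower without control 1 (-1.07, adjusted p = 0.0381). The difference for Asns was -2.62 with a 95% interval of -5.08 to -0.15, for Atf3 0.27 with an interval of -1.25 to 1.78, and for Herpud1 -0.54 with an interval of -1.22 to 0.14. Intervals this wide do not show that these genes returned to the control level. The 3 comparisons use the same libraries in pairs and are not independent of one another.

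In single mice the members did not all deviate the same way from their group. In recovery 1 the ER genes Hspa5, Herpud1 and Xbp1 were at their group's highest value, while Trib3, Chac1, Asns and Fgf21 were at their lowest. In recovery 3 Asns, Fgf21, Chac1, Ddit3 and Atf4 were highest. The deviation from the recovery mean on the log2 scale was 0.69 for Herpud1 and 0.40 for Hspa5 in recovery 1, against -1.74 for Asns and -0.81 for Fgf21 in that mouse. Recovery 1 was also the highest of its group for 15 of 20 other ER chaperones and folding enzymes and for 13 of 22 genes of ER-associated degradation, against 35.0% of all tested genes. It was likewise highest for 8 of 12 stress sensors and transducers. The same held for 10 of 14 FGF21 receptors and hepatic regulators, though Fgf21 itself was lowest there. Control 1 was highest of its group for 12 of the 20 chaperones and folding enzymes (38.3% of all tested genes), yet its Hspa5 was the lowest, at 75.4. Manf and Sdf2l1, an ER stress factor and a chaperone cofactor picked here after their values were seen, were at 36.1 and 8.42 in recovery 1, and at 13.3 to 15.5 and 4.07 to 5.66 in the other recovery mice. Among controls, Atf3 deviated by 1.68 in control 1 and by -1.39 in control 3. The TAA group was the most even, where the largest deviation was -0.58, of Ddit3 in TAA 3.

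**Figure D4:**
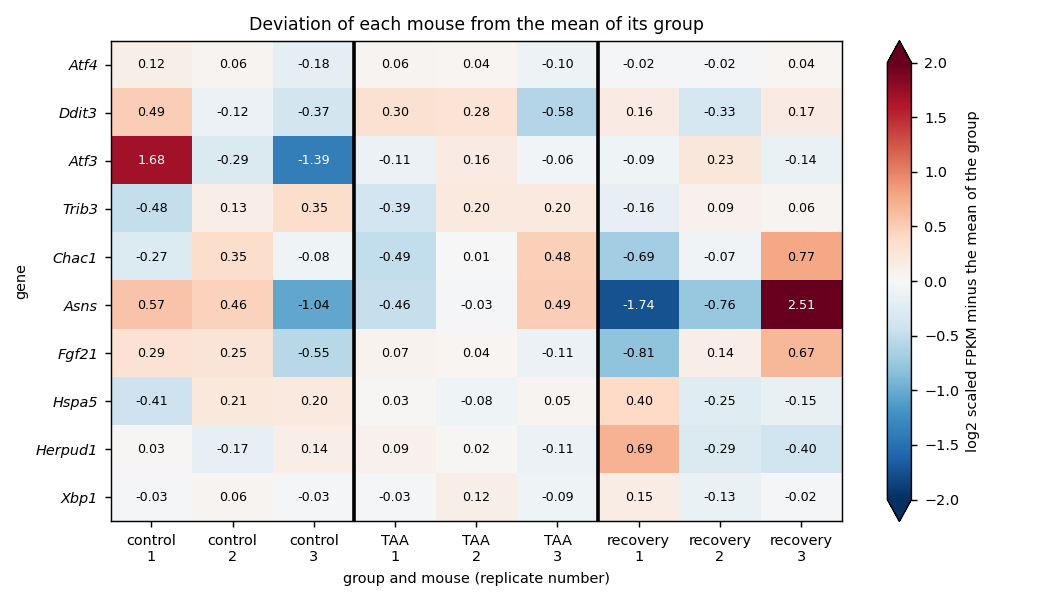
Deviation of each mouse (columns, by group and replicate number) from the mean of its group for each gene (rows), in log2 scaled FPKM, as a colour and a printed value. Recovery 1 is red for Hspa5 and Herpud1 and blue for Asns, Fgf21 and Chac1, and recovery 3 shows the largest value, 2.51 for Asns.

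Other genes of the same pathways were taken from lists of 168 tested genes in all, of which 37 were called in TAA against control, 22 higher and 15 lower (22.0%, against 25.0% of all genes). The split was 50 higher and 4 lower with the FPKM as deposited and 27 and 7 after quantile normalization. Of the 20 genes that the naming rule took from these lists in TAA against control, all 20 kept their direction under both, 13 were called as deposited and 15 after quantile normalization. Among 12 genes of the eIF2 switch, which are its kinases, its phosphatase subunits, eIF2α itself and the exchange factor eIF2B, none was called by limma, 7 had an unadjusted p under 0.05, and the median was 0.09, against 2 called higher as deposited. Of 12 sensors and transducers, Bax, which permeabilizes mitochondria in apoptosis, rose by 1.72 ± 0.13 (adjusted p = 4.09e-05 by limma), and Creb3l3, an ER-tethered transcription factor of hepatocytes, fell by 1.58 (SE 0.08, adjusted p = 7.4e-06). Of 20 ER chaperones and folding enzymes 1 was called, the oxidoreductase gene Ero1lb, which fell by 1.06 (SE 0.18, adjusted p = 0.00176 by limma), and the median was 0.02. With the FPKM as deposited 6 of the 20 were called higher, 3 after quantile normalization, and Ero1lb under neither (-0.42 and -0.91). None of 22 genes of ER-associated degradation was called by limma, 15 had an unadjusted p under 0.05, and the median of -0.31 turned to 0.33 as deposited and 0.08 after quantile normalization. Creb3l3 missed 2-fold under both, at -0.94 and -0.89.

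Many other ATF4 targets were called higher in TAA, unlike Asns and Trib3. Of 18 amino acid enzymes and transporters 10 rose and 2 fell, with a median of 1.43. The counts were 13 and 1 as deposited, where Slc6a9 was not called (-0.52), and 8 and 2 after quantile normalization. Slc7a11, the cystine transporter subunit, was at 0.0189, 0.014 and 0.015 in control and 5.68, 16.3 and 10.8 in TAA mice, a fitted difference of 6.45 ± 0.35 (adjusted p = 1.21e-05 by limma) that depends on the pseudocount because the controls were near 0. Phgdh, which opens serine synthesis, rose by 3.29 ± 0.21 (adjusted p = 2.05e-05 by limma). Slc7a11, Phgdh and, outside the naming rule, Pycr1 passed the filter on low values only through the TAA mice. They could therefore be called only as higher in TAA. Cth, which makes cysteine from cystathionine, fell by 1.91 (SE 0.21, adjusted p = 0.00026), and the glycine transporter Slc6a9 fell by 1.15 (SE 0.20, adjusted p = 0.00204). Against TAA, 2 of the 18 were higher in recovery and 10 lower, with a median of -1.12, and none was called between recovery and control by limma, where 4 had an unadjusted p under 0.05.

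Of 15 ATF4 target regulators and secreted factors 4 rose and 1 fell in TAA, with a median of 0.16, against 7 and 0 as deposited and 3 and 0 after quantile normalization. Stc2, of this list and outside the naming rule, passed the filter on low values only through the TAA mice. The death receptor gene Tnfrsf10b, a CHOP target, rose by 3.90 ± 0.21 (adjusted p = 1.18e-05 by limma), and Ddit4, an mTOR inhibitor, by 1.45 ± 0.29 (adjusted p = 0.00432), while the transcription factor gene Atf5 fell by 1.20 (SE 0.10, adjusted p = 7.92e-05) and missed 2-fold under both other scalings (-0.57 and -0.43). Among 20 cytosolic aminoacyl-tRNA synthetases none was called by limma in TAA against control, 14 had an unadjusted p under 0.05, and the median was 0.05, against 4 called higher as deposited. The threonyl-tRNA synthetase gene Tars was 1.06 ± 0.12 higher in recovery than in control (adjusted p = 0.0161 by limma). Of 12 tested AP-1 and immediate early genes 4 rose and 2 fell in TAA. Klf6 (2.19 ± 0.16) and Fosl1 (1.98 ± 0.38) were among those that rose. Fosl1 was at 0.182, 0.465 and 0.526 in TAA mice and at or below 0.0614 in the others. It passed the filter on low values only through the TAA mice, so it could be called only as higher there. Zfp36 (-1.35 ± 0.23) and Ier2 (-1.03 ± 0.12) fell and were not called as deposited (-0.72 and -0.40).

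Of 14 FGF21 receptors and hepatic regulators 7 fell and 2 rose in TAA, with a median of -0.97, against 3 and 2 as deposited (median -0.33) and 4 and 2 after quantile normalization. Klb, the FGF21 co-receptor, fell by 2.02 (SE 0.09, adjusted p = 6.31e-06 by limma). Fgfr3 rose by 1.71 ± 0.17 and Pdk4, which diverts pyruvate from oxidation, by 2.33 ± 0.27 (adjusted p = 0.000289 by limma). In recovery 6 of the 14 were higher than in TAA and 1 was lower, against 2 and 2 as deposited. Pdk4 was not among the 6: it stayed 2.42 ± 0.27 above control (adjusted p = 0.0161 by limma), with 16.6, 23.0 and 24.0 in recovery against 3.85, 5.43 and 2.68 in control mice.

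**Figure D5:**
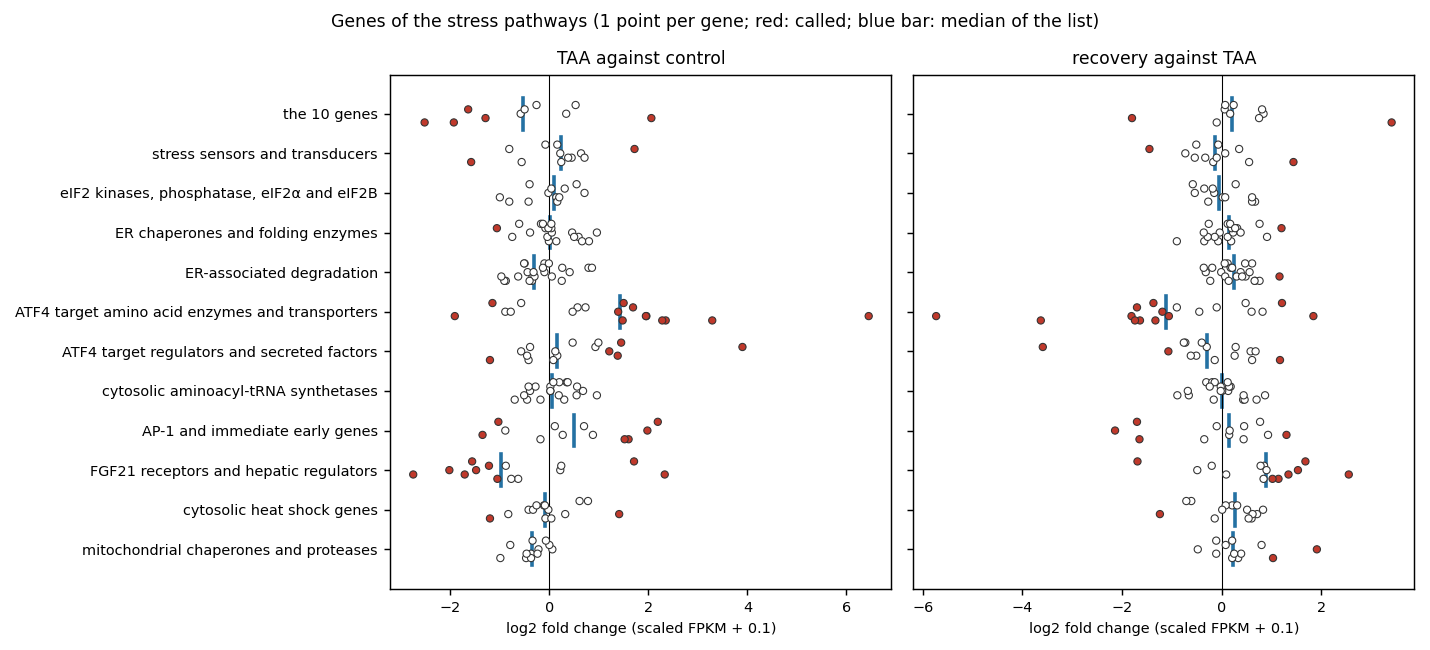
Log2 fold change (x axis, scaled FPKM + 0.1) of every tested gene of the 10 and of each pathway list (y axis, points spread only for sight), for TAA against control and recovery against TAA. Red points were called and the blue bar is the list's median. The ATF4 target amino acid genes lie mostly to the right on the left panel (median 1.43) and to the left on the right panel (median -1.12).

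Summed marker levels of several cell types moved with the TAA group. These are mRNA levels on the scaled values and not counts of cells. The summed scaled FPKM of 8 hepatocyte markers was 40700 to 45200 in control, 22100 to 29100 in TAA and 48400 to 51500 in recovery mice, and 5 of the 8 fell in TAA, against 2 of the 8 as deposited, while after quantile normalization 1 fell and 1 rose. The 8 stellate cell or myofibroblast markers summed to 31.7 to 41.0, 160 to 222 and 31.8 to 43.1 in the same order, with 7 of 8 higher in TAA, and the 6 cholangiocyte markers to 15.7 to 21, 295 to 443 and 27.9 to 38.4, with 6 of 6 higher. All 6 cycling cell markers rose as well, from sums of 1.17 to 1.90 in control to 29.1 to 40.5 in TAA mice. No marker of these 4 lists was at 0 throughout a group. Timp1 of the stellate list and Cftr of the cholangiocyte list passed the filter on low values only through the TAA mice. Both could therefore be called only as higher there. In bulk tissue fewer cells of a type and less RNA per cell cannot be told apart. A lower level of a member such as Fgf21 or Asns in TAA could therefore not be assigned to either. The cell types that gave these transcripts were not determined, and the part of tissue make-up in these results was not tested. Macrophage markers rose in 2 of 8, neutrophil markers in 3 of 3 tested, lymphocyte markers in 1 of 7, plasma cell markers in 1 of 4 tested and endothelial markers in 0 of 7 by limma (1 with an unadjusted p under 0.05). As deposited, macrophage markers rose in 5 of 8 and lymphocyte markers in 5 of 7, and after quantile normalization in 2 of 8 and 0 of 7 by limma, while the neutrophil, plasma cell and endothelial counts were the same under both. Control 1 differed from controls 2 and 3 in some markers, picked after their values were seen. Gpnmb was at 22.2 in control 1 against 0.188 and 0.102, Trem2 at 7.1 against 0.302 and 0.389, and Clec4f at 13.8 against 32.3 and 36.2. Lyz2 was at 47.2, 45.6 and 43.3. The endothelial markers summed to 52.6 to 96 in control mice, lowest in control 1. The effect of this mouse on the marker counts was not tested. Skeletal muscle markers summed to 0 in control and up to 35.4 in TAA, in TAA 3. Without that library 4 members were called in TAA against control, and the difference of Atf3 was 2.09 (adjusted p = 0.0603 by limma), while leaving out TAA 1 or TAA 2 lost the same call.

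By a rule that took, for each member, the gene with the highest Pearson r over the 9 libraries among 11092 candidates of at least 1 FPKM, the closest patterns were Hjv for Atf4 (r = 0.994), Grb14 for Fgf21 (0.988), Sema4d for Atf3 (0.985), 2010315B03Rik for Trib3 (0.983), Ecsit for Herpud1 (0.970), Slc25a17 for Xbp1 (0.966), Tprn for Hspa5 (0.927), Atp9a for Asns (0.918), Abcb11 for Ddit3 (0.904) and Lsm10 for Chac1 (0.881). These values describe 9 points that share group differences, libraries and scaling. Among the members themselves Atf4 and Fgf21 had the highest r, 0.96 over the 9 libraries. That value reflects points in 3 separate groups and is given as a description.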

How the data were processed

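Liver mRNA of 3 control, 3 TAA and 3 recovery mice was analysed. Per the labels and the study's methods, the authors sequenced 150-base paired reads, mapped them to mm10 (GRCm38) with HISAT2 2.2.1 and counted them with featureCounts 1.5.0-p3. The deposited unit is FPKM, and the paper describes no further scaling of these values between libraries. The gene annotation release is not given in the sources used here. No counts were used. Steps in the low values gave an estimated 26800000 to 40700000 fragments per library, but only 53.7 to 61.3% of low values lay within 0.08 of a whole fragment (16.0% by chance), so reads were not recovered and the fragment numbers given for single genes are estimates.

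Each library was scaled by a median-of-ratios factor, and log2(scaled FPKM + 0.1) was tested with limma 3.58.1 (R 4.3.3, variance trend) in the 6 libraries of each pair of groups, for 14094 genes of at least 0.1 mean FPKM. Calls needed an adjusted p under 0.05 together with a change of 2-fold or more. The study's own count test could not be applied to FPKM. The fit was tested on simulated data. Alternatives changed the scaling, pseudocount, filter, samples in the fit, variance trend and replicate block, or left out 1 library. The members and the pathway and marker lists were chosen with earlier results of these data known. Named from each pathway list were up to 2 called genes with the largest rise and 2 with the largest fall in TAA against control whose groups did not overlap, and any called between recovery and control. Exceptions are named as such. 1 gene that the rule took is not reported here. Gene positions are from the table, with strands from GENCODE M21, and promoter sequences are from RefSeq (GRCm38.p6), without chromosome 18. Drawings used matplotlib.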

Additional observations from a re-analysis of the deposited data

How the results depend on the processing

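In TAA against control 4 to 6 members and 26 to 54 pathway genes were called under the alternatives, with the most members after quantile normalization and the most pathway genes with the FPKM as deposited. In recovery against TAA 2 or 3 members were called. In recovery against control 1 member was called with all 9 libraries in 1 fit (Fgf21), and leaving out each library gave 0 to 1 members (Trib3 without control 1) and 1 to 4 pathway genes, against 3 (1 without recovery 2 or without recovery 3). With the FPKM as deposited, the TAA against control difference turned to 0.06 for Atf4 and 0.37 for Xbp1, and recovery against TAA to -0.39 for Hspa5, -0.31 for Ddit3, -0.36 for Chac1 and -0.49 for Xbp1. Quantile normalization turned Xbp1 to 0.32 in TAA against control, and Hspa5 to -0.54, Asns to 0.35 and Xbp1 to -0.45 in recovery against TAA. A pseudocount of 1 turned Asns to 0.13 in the latter. The cause was not tested. Leaving out each library in turn, differences that changed sign ranged in recovery against TAA from -0.23 to 0.31 for Chac1, -0.05 to 0.40 for Ddit3, -1.28 to 0.70 for Asns, -0.02 to 0.30 for Hspa5 and 0.00 to 0.14 for Xbp1, and in recovery against control from -0.33 to 1.01 for Atf3. Of the members' differences under all alternatives, 413 kept direction and side of the threshold, 20 reversed, 7 were lost as calls and 7 became calls.

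The same replicate numbers do not mark shared animals, and deviations of same-numbered libraries correlated at only -0.07 to 0.17. With the replicate number as a replicate block, 5, 2 and 0 members were called in TAA against control, recovery against TAA and recovery against control, and 36, 33 and 1 pathway genes. Counts over all genes that moved by more than 1.5 times were, for TAA against control, 1780 with a pseudocount of 1 and 2204 with a mean of at least 1 FPKM (3520 otherwise); for recovery against TAA 1460 and 1895 (3017 otherwise); and for recovery against control, against 140, 80 with a pseudocount of 1, 48 with no filter, 235 with all libraries in 1 fit, 85 with no variance trend, 17 with the replicate block and 32 to 51 without control 2, control 3, recovery 2 or recovery 3. With 3 mice per group, low genes such as Chac1 allow wide intervals.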

Other observations

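Heat shock genes of the cytosol, which answer to unfolded protein outside the ER, had few calls under TAA. Of 14 genes, Hspb1, a small heat shock protein, rose by 1.41 ± 0.30 (adjusted p = 0.00569 by limma), and Hspa8, the constitutive HSC70, fell by 1.20 (SE 0.16, adjusted p = 0.000629 by limma), with a median of -0.09 for the list. As deposited 3 rose and none fell by limma, and Hspa8 was at -0.56, or at -0.02 after quantile normalization. Of the 14, 13 were highest among controls in control 1 and 10 were highest among recovery mice in recovery 1, against 38.3% and 35.0% of all tested genes. Hspa1b, an inducible HSP70 gene chosen after its values were seen, was at 7.57, 1.74 and 2.60 in control and at 19.5, 3.29 and 2.98 in recovery mice. Its near-identical copy Hspa1a was at 1.53, 0.501 and 0.447 in control and at 4.66, 0.803 and 0.780 in recovery mice, and reads of these genes cannot be fully separated. Recovery 1 is also the mouse with the highest Hspa5 and Herpud1. Control 1 had the lowest Hspa5 of the controls (75.4, against 116 and 115), and its Herpud1 lay between the others (157, against 136 and 169). A link between these genes was not tested.

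Of 12 mitochondrial chaperones and proteases none was called between TAA and control by limma, 7 had an unadjusted p under 0.05, and the median of -0.35 turned to 0.29 with the FPKM as deposited and 0.05 after quantile normalization. Clpx, the unfoldase of a matrix protease, was at 35.5, 36.8 and 31.0 in control, 32.3, 30.1 and 26.5 in TAA, and 103, 118 and 112 in recovery mice. It was 1.69 ± 0.09 higher in recovery than in control (adjusted p = 0.00661 by limma), without overlap, and with Tars and Pdk4 it was one of the 3 pathway genes called in that comparison (1.79% of 168).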
